A study of Mus musculus with 3 samples.

Results

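The 47 genes described here encode Polycomb proteins, trithorax proteins, the histone demethylases and deacetylases that act beside them, and the enzymes that write, copy and erase DNA methylation. They were listed by symbol, and all 47 were found among the 32285 genes of single-cell matrices made from entire kidneys of E15.5 mouse embryos. The kidneys gave 3 droplet libraries (10x Genomics, 3′ end counting), 1 for each group and each made from several pooled embryos. Every embryo was *Wt1* GFPCre/+ on a B6 background, a knock-in that inactivates its *Wt1* allele and expresses Cre in *Wt1*-positive cells. The study gives the mutation as restricted to those cells and their progeny in nephron and stroma, which leaves out ureteric epithelium and endothelium. Recombination in each lineage was not examined here. Enl-WT embryos were Enl +/+. Enl-T1 embryos were Enl flox-T1/+ and carried, after recombination, 1 allele of a Wilms tumour mutation of ENL, a chromatin reader encoded by *Mllt1*. Enl-T1 TDI-11055 embryos had the same genotype, and their mothers received 100 mg/kg of TDI-11055, a small molecule that blocks the acyl-binding pocket of ENL, in a daily oral dose from E10.5 to E14.5. No Enl-WT embryos given TDI-11055 were part of the series, and the sex of the embryos was not determined. Values of the 3 libraries are given in the order Enl-WT, Enl-T1, Enl-T1 TDI-11055, and those of the last are also marked as with TDI-11055.

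Polycomb and trithorax proteins hold genes in a silent or an active state through rounds of cell division. Polycomb repressive complex 2 (PRC2) methylates histone H3 on lysine 27 through *Ezh2* or *Ezh1*, PRC1 ubiquitylates histone H2A through *Ring1* or *Rnf2*, and the trithorax-type COMPASS complexes methylate histone H3 on lysine 4 through the Kmt2 enzymes. *Dnmt3a* and *Dnmt3b* set new DNA methylation, *Dnmt1* with its recruiting partner *Uhrf1* copies it onto newly made DNA, and the Tet enzymes oxidise it. In the developing kidney these systems act while nephron progenitors choose between renewal and commitment. *Dnmt1*, *Ezh2* and *Ash2l* were singled out by the study from these same libraries, so that their values here are not independent evidence.

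Some of these genes are known targets of E2F factors, which drive genes of DNA replication, and their promoters are shown because several of them share an S-phase pattern given below. RefSeq windows (GRCm38.p6, 250 bases before to 50 after a start) were available for 41 of the 47 genes and were searched on both strands for the E2F words TTTCCCGC, TTTCGCGC, TTTGCCGC and TTTGGCGC. No other motif was searched, so that overlap with other motifs was not examined. At least 1 word stood in the windows of 5 of the 41 genes (12.2%), against 704 of 27025 genes overall (2.6%) and 417 of 7934 genes with at least 5 CPM (counted molecules scaled to a fixed total) in Enl-WT nephron progenitors (5.26%). Among the 10 replication genes with a window that were used to find S-phase cells, 5 held a word. The 5 genes of the list were *Ezh2*, *Suz12*, *Phf19*, *Dnmt1* and *Uhrf1*, and *Ezh2*, *Dnmt1* and *Uhrf1* are those whose counts were higher in S-phase cells of all 3 libraries (below). Each stretch is 100 bases long, is written 5′ to 3′ on the strand of the gene, and has the word in capitals, which appears as its reverse complement in *Phf19* and *Dnmt1*. They lie at chr6:47595001-47595100 (minus strand, *Ezh2*, word at +3 from the start), chr11:79992856-79992955 (plus strand, *Suz12*, -219), chr2:34914127-34914226 (minus strand, *Phf19*, -208), chr9:20952774-20952873 (minus strand, *Dnmt1*, -219, in 1 of its 3 windows, which also held TTTGGCGC at +33, outside the stretch shown) and chr17:56304082-56304181 (plus strand, *Uhrf1*, -185, in 1 of its 2 windows). A match describes the letters of the window and does not show that a factor binds there.
*Ezh2*: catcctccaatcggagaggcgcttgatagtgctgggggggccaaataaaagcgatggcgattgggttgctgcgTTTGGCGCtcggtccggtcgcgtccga
*Suz12*: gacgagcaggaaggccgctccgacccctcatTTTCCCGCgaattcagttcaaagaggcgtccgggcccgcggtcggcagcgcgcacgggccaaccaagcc
*Phf19*: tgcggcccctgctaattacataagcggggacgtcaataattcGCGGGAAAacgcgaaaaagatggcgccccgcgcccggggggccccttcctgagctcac
*Dnmt1*: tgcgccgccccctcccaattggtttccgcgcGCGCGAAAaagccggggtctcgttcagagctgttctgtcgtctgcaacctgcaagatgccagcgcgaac
*Uhrf1*: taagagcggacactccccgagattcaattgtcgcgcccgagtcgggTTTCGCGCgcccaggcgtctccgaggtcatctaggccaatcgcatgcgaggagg

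Barcodes with 1000 to 6000 genes and at most 10% mitochondrial counts were kept, which left 5233 cells of Enl-WT, 4144 of Enl-T1 and 2754 of Enl-T1 TDI-11055. These were 72.8%, 63.0% and 42.7% of the barcodes. The upper limit on genes alone removed 55, 309 and 577 barcodes, and the part of this unequal loss in the differences was not tested. The libraries differed in depth, with medians of 5090, 9391 and 16931.5 unique molecular identifiers (UMIs, counted molecules) per kept cell, and in the share of UMIs on ribosomal protein genes, with medians of 16.5%, 26.8% and 27.8%. Cells in which *Xist* was seen without Y-linked UMIs made up 26.5%, 73.3% and 35.1% of them, and pairs of libraries shared 5 to 8 kept barcodes. Erythroid markers, which kidney cells lack, summed to between 1658 and 2584 CPM in every class of the Enl-WT library, so free RNA was present in the droplets. Their sums differed more between classes in Enl-T1, from 326 CPM in NP2-like to 5138 in podocyte-like cells. With TDI-11055 they ran from 409 CPM in endothelial cells to 3417 in stroma. The UMIs of all cells in a class were added and scaled to a fixed total (CPM) with exact Poisson intervals, and ratios of CPM with exact binomial intervals. All intervals are 95% intervals that cover counting error only, and with 1 library per group no test between groups was possible. The median log2 ratio of Enl-T1 over Enl-WT across all genes with a mean of at least 5 CPM was -0.33 in nephron progenitors, so that ratios are given relative to the median gene of the same comparison. A gene was counted as higher or lower when this relative ratio reached 1.4-fold, and a percentage beside such a count is the share of all genes tested that did so.

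Nephron progenitors were the cells of 4 clusters named from markers such as *Six2* and *Cited1* (731 cells in Enl-WT, 599 in Enl-T1 and 583 with TDI-11055). The summed level of those progenitor markers in them was 1421, 545 and 1073 CPM in the 3 libraries, and 3 of the 4 clusters were led by cell cycle genes, with none of the markers among their 10 leading genes. *Mllt1* had 27.7, 22.2 and 19.9 CPM there, a sum over the mutant and normal alleles. All 47 genes had UMIs in nephron progenitors of each library, and 45 reached a mean of 5 CPM. The exceptions were *Phf1*, a PRC2 accessory protein, with 2.84, 2.35 and 3.27 CPM, and *Cbx7*, a PRC1 chromobox protein, with 2, 4 and 8 UMIs.

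**Figure D1:**
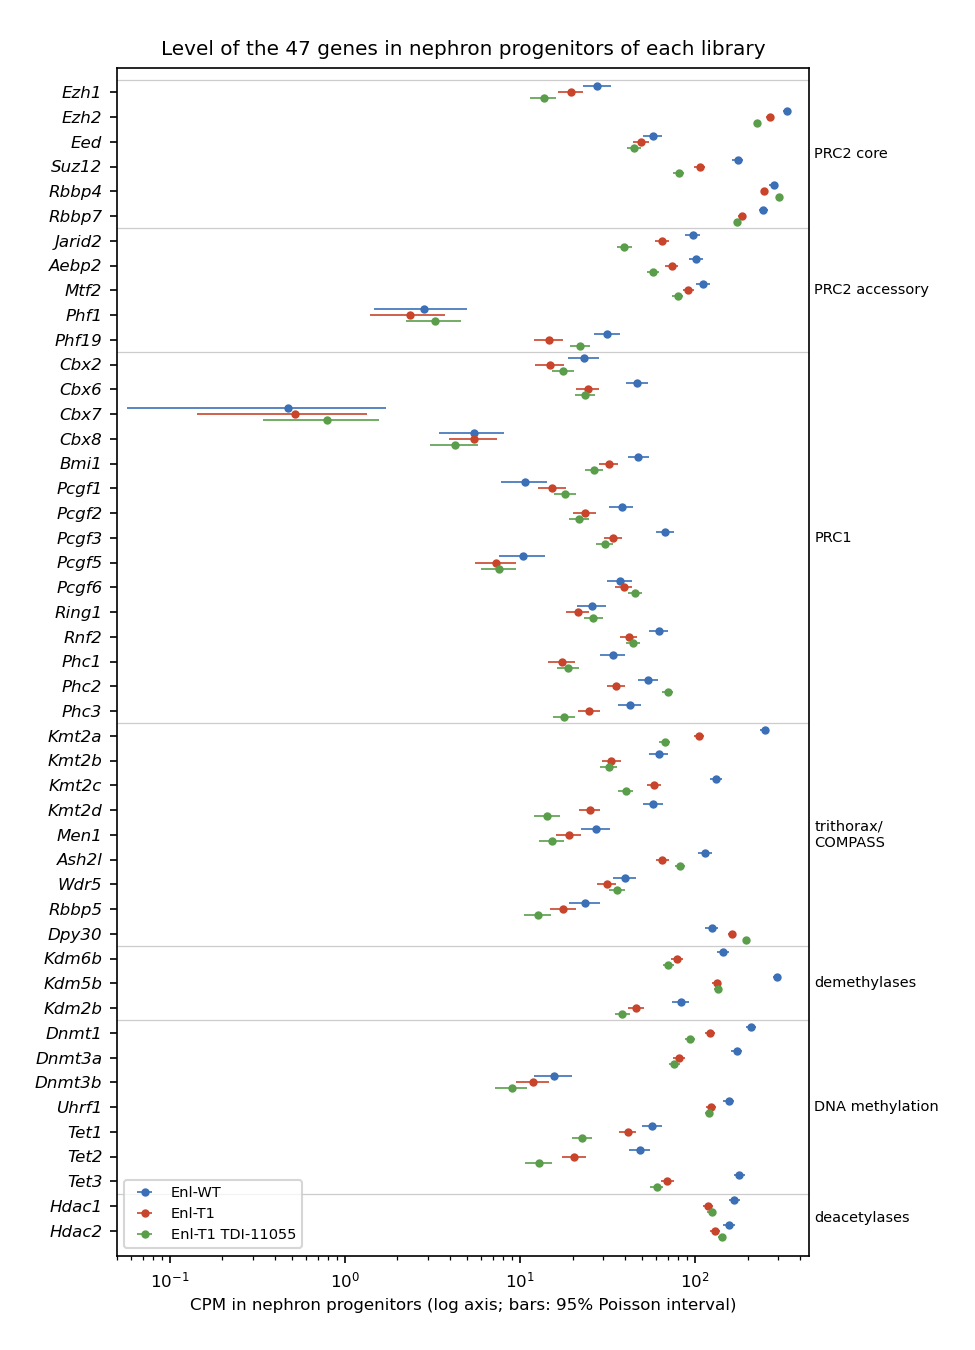
Level of each of the 47 genes in nephron progenitors, in CPM on a log axis, with 1 point per library (blue Enl-WT, red Enl-T1, green Enl-T1 TDI-11055) and 95% Poisson intervals as bars; genes are grouped by role. The Enl-WT point lies to the right of the Enl-T1 point for 41 of the 45 genes with at least 5 CPM, and *Dpy30* and *Pcgf1* are among the exceptions. The median of all genes tested is lower in Enl-T1 as well (log2 ratio -0.33).

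The 4 main lineages (nephron, stroma, ureteric epithelium and endothelium) were compared next. Each gene had UMIs in every lineage of every library except *Phf19*, which had none in endothelial cells of the treated library, and *Cbx7* stood under 1 CPM in stroma. The part of free RNA in the lowest values was not tested. Of the 45 genes with at least 5 CPM over the lineages, 18 had the same highest lineage in all 3 libraries, against 53.8% of all genes. Ureteric epithelium was the highest lineage for 12 of the 45, against 20.1% of all genes, and endothelial cells were the lowest for 20, against 25.0%. Counting all 47 genes, ureteric epithelium was highest for 13, among them the lysine 4 methyltransferases *Kmt2b*, *Kmt2c* and *Kmt2d*, the lysine 4 demethylase *Kdm5b*, the lysine 27 demethylase *Kdm6b* and *Dnmt3a*. The nephron was highest for *Ezh1*, *Ezh2*, *Rbbp4*, *Pcgf1* and *Phf19*, and stroma for *Phf1* and *Tet2*. None of the 45 stood at least 2-fold above every other lineage in all 3 libraries, a pattern shown by 10.1% of all genes. *Phf19*, which helps PRC2 to engage chromatin and whose mean over the lineages was under 5 CPM, did so, with 10.8 CPM in the Enl-WT nephron, 8.93 in Enl-T1 and 13.5 with TDI-11055, between 2.11 and 2.94 times the next lineage. For *Ezh2* the nephron exceeded the next lineage by 1.11 to 1.47 times, and for *Dnmt3a* ureteric epithelium did so by 1.30 to 1.34 times. Several margins were narrow, with smallest values of 1.06 times for *Kmt2b*, 1.03 for *Kmt2d* and 1.01 for *Kdm6b* and *Rbbp4*. With cells of 1500 to 4500 genes and at most 5% mitochondrial counts, 10 of the 47 genes in place of 20 kept the same highest lineage.

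The first comparison asked which of the genes differ between Enl-T1 and Enl-WT nephron progenitors. For 41 of the 45 genes the level in CPM was below that of Enl-WT. The median gene was itself at -0.33, so that most genes tested lay below Enl-WT, and their share was not counted. Relative to the median gene 36 lay below, with a median of -0.23 on the log2 scale, and 14 reached 1.4-fold, where 18.2% of all genes did. *Dpy30* and *Pcgf1* were higher by as much, against another 18.2% of all genes. Taken as CPM ratios without the shift of the median gene, 28 genes were lower by 1.4-fold, where 38.6% of all genes were, and 1, *Pcgf1*, was higher, where 8.14% were. Of the 14 lower genes 4 were trithorax methyltransferases, 3 demethylases, 3 DNA methylation genes, 3 PRC1 genes and 1 a PRC2 accessory gene.

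Trithorax genes had a median of -0.48 on the relative log2 scale, with 4 of 9 lower and 1 higher. *Kmt2a* (MLL1), which maintains Hox gene expression, had 251 CPM in Enl-WT nephron progenitors, 106 in Enl-T1 and 67.2 with TDI-11055, and its relative value in Enl-T1 was -0.91 (-1.05 to -0.78). The intervals of its 3 levels did not overlap. *Kmt2b*, which acts at promoters, had 62.0, 33.3 and 32.3 CPM. *Kmt2c* and *Kmt2d*, which methylate lysine 4 at enhancers, had 132, 58.6 and 40.3 CPM and 57.8, 25.1 and 14.3 CPM. Their relative values in Enl-T1 were -0.57 for *Kmt2b*, -0.84 for *Kmt2c* and -0.87 for *Kmt2d*. Thus every Kmt2 gene listed was among the lower genes. *Dpy30*, a small subunit shared by all COMPASS complexes, had 124 CPM in Enl-WT, 163 in Enl-T1 and 196 with TDI-11055, and exceeded Enl-WT in Enl-T1 by 0.72 (0.57 to 0.87). *Ash2l* (chromosome 8, 25815996 to 25847694 on GRCm38), which binds *Dpy30* in the same complexes, had 115 CPM (105 to 126), 65.3 (59.7 to 71.3) and 82.2 (76.7 to 88), and its value of -0.48 (-0.67 to -0.30) stopped just short of 1.4-fold. *Wdr5*, *Rbbp5* and *Men1*, subunits or partners of the same complexes, lay between -0.18 and -0.01.

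All 3 demethylases were lower in Enl-T1, with a median of -0.53. *Kdm5b*, which removes lysine 4 methylation, had 295 CPM in Enl-WT, 133 in Enl-T1 and 136 with TDI-11055, a relative value of -0.81 (-0.94 to -0.69) in Enl-T1. *Kdm6b*, which removes the PRC2 mark, had 144, 79.2 and 70.6 CPM and a value of -0.53. *Kdm2b*, which brings a PRC1 variant to unmethylated CpG islands, had 82.8, 46.2 and 38.5 CPM and a value of -0.51. For each of them the Enl-WT library was the high one and the other libraries lay close together.

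DNA methylation genes had a median of -0.44, with 3 of 7 lower. *Tet3* had 179 CPM (167 to 192) in Enl-WT, 69.5 (63.7 to 75.6) in Enl-T1 and 60.4 (55.7 to 65.4) with TDI-11055, and its relative value in Enl-T1 of -1.03 (-1.20 to -0.87) was the furthest of the 45. *Tet2* had 48.3, 20.4 and 12.9 CPM, and *Dnmt3a* 173, 81.5 and 76.1 CPM, with values of -0.91 and -0.76. In both, Enl-WT was the highest library. *Dnmt1* (chromosome 9, 20907209 to 20959888) had 210 CPM (196 to 224), 123 (115 to 131) and 93.9 (88 to 100.1), intervals that did not overlap. Its relative value in Enl-T1 was -0.44 (-0.58 to -0.31), under 1.4-fold. Its partner *Uhrf1*, with 156, 123 and 121 CPM, lay at -0.01 (-0.15 to 0.14). *Tet1* and *Dnmt3b* lay within 1.4-fold as well, with *Tet1* at -0.13.

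The PRC2 core had a median of -0.04, with no member at 1.4-fold over all cells. *Ezh2* (chromosome 6, 47530139 to 47595341), its main catalytic subunit, had 337 CPM (319 to 354) in Enl-WT, 267 (255 to 279) in Enl-T1 and 226 (217 to 235) with TDI-11055. These intervals did not overlap, yet relative to the median gene Enl-T1 stood at 0.00 (-0.10 to 0.10). *Suz12*, without which PRC2 is unstable, had 176, 107 and 80.9 CPM and a value of -0.39, which passed 1.4-fold in the Y-linked cells described below. *Eed*, *Rbbp4* and *Rbbp7* lay between -0.07 and 0.15. Among the 4 accessory genes tested, *Phf19* (chromosome 2, 34893757 to 34914026) was the 1 at 1.4-fold. It had 31.5 CPM (26.4 to 37.3), 14.6 (12 to 17.6) and 22.1 (19.3 to 25.2), and had a relative value in Enl-T1 of -0.77 (-1.15 to -0.40).

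PRC1 had a median of -0.26, with 3 of 14 tested genes lower and 1 higher. *Pcgf3*, a ring finger protein of variant PRC1, had 67.7, 34.1 and 30.6 CPM and a value of -0.66. *Cbx6* had 46.9, 24.4 and 23.6 CPM (-0.61) and the polyhomeotic protein *Phc1* 33.8, 17.4 and 18.8 CPM (-0.63). *Pcgf1*, which defines the PRC1 variant that holds *Kdm2b*, went the other way with 10.7 CPM (7.77 to 14.2), 15.3 (12.6 to 18.3) and 18.2 (15.7 to 21). Its value of 0.85 (0.35 to 1.38) rested on 45 and 117 UMIs, and the intervals of its Enl-WT and Enl-T1 levels overlapped. Of the others, *Bmi1*, *Rnf2* and *Ring1* lay within 1.4-fold. The deacetylases *Hdac1* and *Hdac2*, with 168, 119 and 125 CPM and 157, 130 and 143 CPM, lay within 1.4-fold too.

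Because the libraries differed in the sex of their cells, the comparison was repeated in progenitors with Y-linked UMIs but without *Xist* (336 in Enl-WT and 113 in Enl-T1). In them 17 of 45 genes were lower, where 23.2% of all genes were, and 4 were higher, where 22.0% were. *Dnmt1* was then past 1.4-fold, at -0.94 (-1.23 to -0.66) from 451 and 130 UMIs in place of -0.44. The PRC2 core gene *Suz12* passed it too, at -0.83 (-1.14 to -0.52) from 372 and 116 UMIs, and so did *Phc3* at -0.73 (-1.43 to -0.07). *Tet3* stood at -1.30, *Kmt2a* at -1.35, *Cbx6* at -1.11, *Phf19* at -0.86, *Ash2l* at -0.54 and *Ezh2* at -0.08. *Kdm2b*, at -0.40 (-0.80 to -0.003), was the 1 of the 14 lower genes that no longer reached 1.4-fold. *Dpy30* and *Pcgf1* remained higher, at 0.59 and 1.02.

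**Figure D2:**
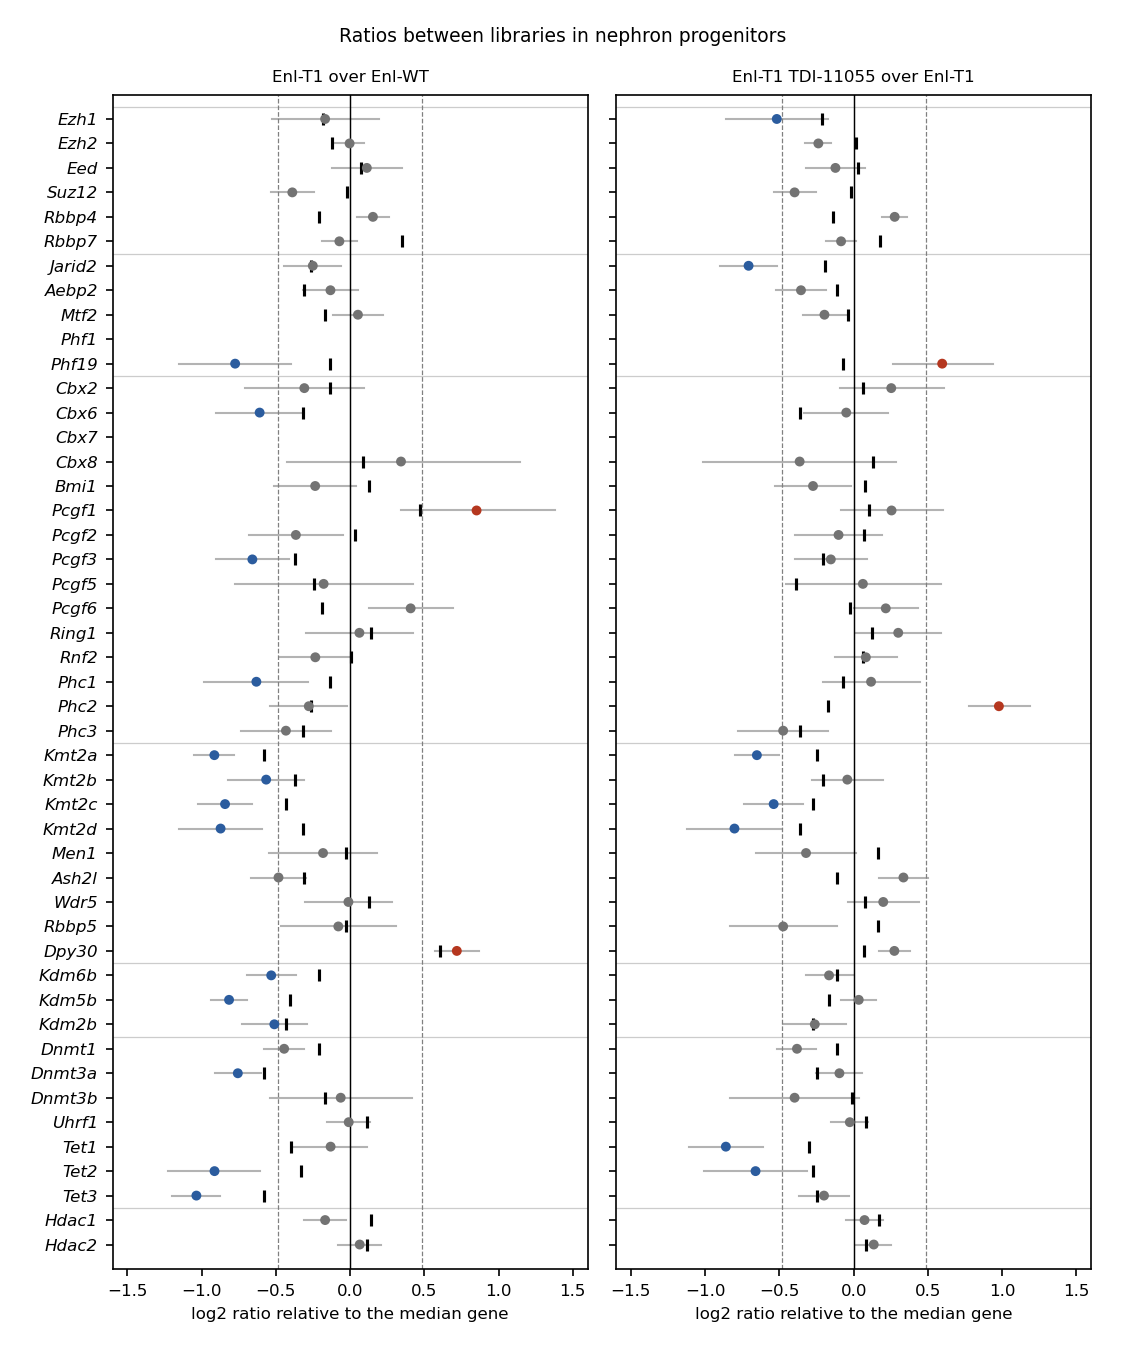
Log2 ratio of each gene relative to the median gene in nephron progenitors, Enl-T1 over Enl-WT on the left and Enl-T1 TDI-11055 over Enl-T1 on the right, with 95% counting intervals; blue and red points reached 1.4-fold (dashed lines) and short black bars mark the median of genes of similar level and length. On the left 14 points are blue and 2 red, and on the right 7 are blue and 2 red.

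Many of the lower genes are long. Exonic length in the list ran from 1146 bases for *Dpy30* to 20291 for *Kmt2c*, with a median of 6487. Across the 45 genes the relative ratio of Enl-T1 over Enl-WT and exonic length had a Spearman correlation of -0.68, and across 9810 genes one of -0.45. These are descriptions over genes that share 2 libraries. The longest 8 genes, from *Kdm5b* (16555 bases) upward, lay between -1.03 and -0.76 apart from *Phc3* at -0.43, while the 2 shortest were the 2 higher genes. Each gene was therefore set beside genes of similar level and length, 64 to 219 for each. Against the median of those genes the 45 had a median of -0.15, 31 lay below it, 4 were lower by 1.4-fold where 13.5% of all genes were, and 1 was higher where 15.4% were. The 4 were *Phf19* (-0.64), *Tet2* (-0.58), *Kmt2d* (-0.55) and *Phc1* (-0.50), and the higher 1 was *Pcgf6* (0.60), a PRC1 ring finger protein with 37.2, 39.2 and 45.4 CPM. *Tet3* was then at -0.45, *Kmt2a* at -0.33, *Dnmt1* at -0.24, *Ash2l* at -0.17 and *Dpy30* at 0.11. Depth and the ribosomal share differed between the same libraries, as given above, and the part of these and of length in the differences was not tested.

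**Figure D3:**
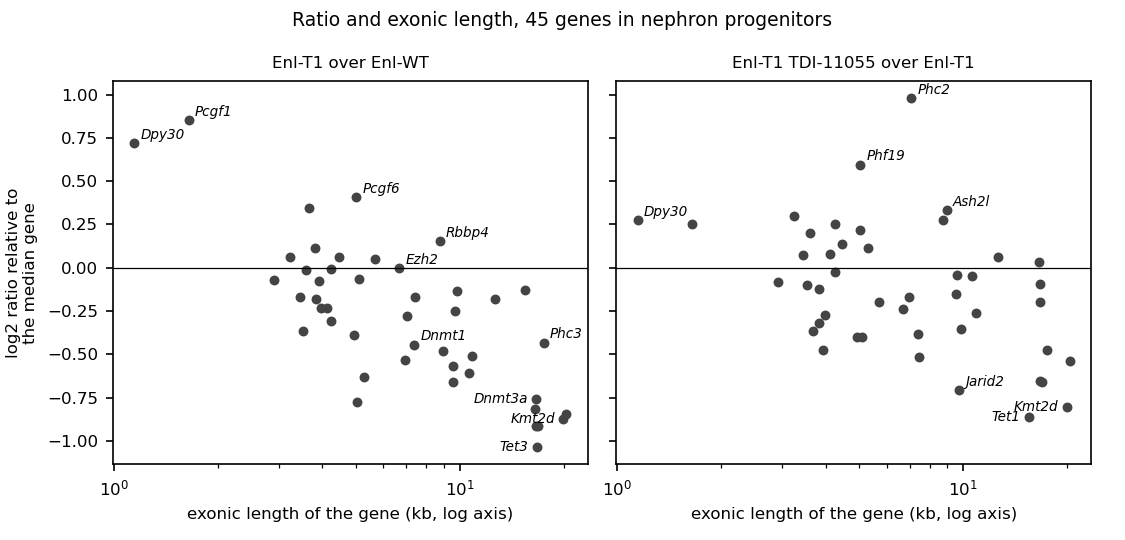
Log2 ratio relative to the median gene against exonic length (kb, log axis) for the 45 genes in nephron progenitors, 1 point per gene, Enl-T1 over Enl-WT on the left and Enl-T1 TDI-11055 over Enl-T1 on the right. The points fall to the right in both panels, with Spearman correlations of -0.68 and -0.46.

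The second comparison asked how the genes differ between treated and untreated Enl-T1 progenitors. It shares the Enl-T1 library with the first, so the values of both are given side by side. The median gene did not shift (-0.002), and the 45 genes had a median of -0.12, with 29 below the median gene. In all, 7 were lower by 1.4-fold where 12.0% of all genes were, and 2 were higher where 10.1% were. With cells of 1500 to 4500 genes and at most 5% mitochondrial counts, 16 were lower (25.2% of all genes) and 4 higher (18.6%), with a median of -0.31, while in Y-linked cells without *Xist* the median was 0.024.

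The lower genes were *Kmt2a*, *Kmt2c*, *Kmt2d*, *Tet1*, *Tet2*, *Jarid2* and *Ezh1*. *Tet1* had 57.0 CPM in Enl-WT, 41.4 in Enl-T1 and 22.8 with TDI-11055, a relative value of -0.86 (-1.11 to -0.61) after treatment against -0.13 in the first comparison. For *Kmt2d*, *Tet2*, *Kmt2a* and *Kmt2c* the relative values after treatment were -0.80, -0.66, -0.65 and -0.54, and these 4 were already among the lower genes of the first comparison. *Jarid2*, a DNA-binding partner of PRC2, had 97 CPM (87.9 to 107), 64.8 (59.2 to 70.7) and 39.6 (35.8 to 43.7) and a value of -0.71 (-0.90 to -0.51). *Ezh1*, the other lysine 27 methyltransferase, had 27.7, 19.6 and 13.7 CPM and a value of -0.52. In each of these genes the treated library was the lowest of the 3.

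Higher after treatment were *Phc2* and *Phf19*. *Phc2*, a polyhomeotic subunit of canonical PRC1, had 54.2 CPM (47.4 to 61.7) in Enl-WT, 35.5 (31.4 to 40.0) in Enl-T1 and 69.9 (64.8 to 75.2) with TDI-11055, intervals that did not overlap. Its value was 0.98 (0.78 to 1.19) after treatment and -0.28 in the first comparison, and treated against Enl-WT it stood at 0.69 (0.47 to 0.91). *Phf19* was at 0.60 (0.26 to 0.94) after treatment and at -0.77 in the first comparison, and treated against Enl-WT at -0.19 (-0.51 to 0.13). *Ash2l* stood at 0.34 (0.17 to 0.50) after treatment, *Dnmt1* at -0.38 (-0.51 to -0.25) and *Ezh2* at -0.24 (-0.33 to -0.15), all within 1.4-fold.

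In progenitors with Y-linked UMIs but without *Xist*, the comparison after treatment left *Tet1* at -0.97 (-1.43 to -0.50), *Jarid2* at -0.49 (-0.87 to -0.09) and *Kmt2d* at -0.54 (-1.16 to 0.12), while *Kmt2a* (-0.10), *Kmt2c* (-0.17), *Tet2* (-0.23) and *Ezh1* (-0.33) did not reach 1.4-fold. The lower values of those 4 thus depended on which cells were compared. Genes within 1.4-fold over all cells passed it here, among them *Mtf2* at -0.59 (-0.87 to -0.31) and *Kdm2b* at -0.53 (-0.93 to -0.12). *Men1* at -0.64 (-1.27 to 0.005) and *Cbx8* at -1.28 (-2.41 to -0.12) did so too, the last from 17 treated and 13 untreated UMIs. *Phc2* stood at 1.26 (0.82 to 1.74) and *Phf19* at 0.75 (0.01 to 1.56) in the same cells, from 46 and 350 UMIs and from 18 and 96 UMIs.

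By role, the medians after treatment were -0.18 for the PRC2 core, -0.28 for its accessory proteins, 0.07 for PRC1, -0.32 for trithorax, -0.17 for the demethylases, -0.38 for DNA methylation and 0.10 for the deacetylases. Length was related to the ratio here as well, with a Spearman correlation of -0.46 over the 45 genes and -0.40 over all genes. Beside genes of similar level and length, the median was -0.10 and 24 of the 45 lay below it. By that measure 4 genes were lower by 1.4-fold where 9.29% of all genes were, namely *Rbbp5* (-0.64), *Tet1* (-0.56), *Jarid2* (-0.52) and *Cbx8* (-0.50). *Phc2* (1.15) and *Phf19* (0.67) were higher, where 8.62% of all genes were.

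Enl-T1 was also compared with Enl-WT in the other lineages, among which the study gives stroma alone as expressing the Cre. In stroma, where 44 genes reached the minimum, 10 were lower (17.1% of all genes) and 1 was higher (18.4%). In ureteric epithelium 13 of 44 were lower (14.4%) and 2 higher (16.8%). In endothelial cells 10 of 43 were lower (16.0%) and 3 higher (17.6%). Below the median gene were 40 of 44, 36 of 44 and 31 of 43 genes. The median gene itself had log2 ratios of -0.30, -0.30 and -0.31, close to the -0.33 of nephron progenitors, and without that shift the lower genes numbered 27, 27 and 22, where 36.4%, 34.6% and 36.4% of all genes were lower. In the same order, the Spearman correlation of the ratio with exonic length across these genes was -0.40, -0.62 and -0.39, against -0.43, -0.51 and -0.35 over all genes, which are not independent replicates.

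*Kmt2a*, *Kmt2c*, *Kmt2d* and *Dnmt3a* were lower by 1.4-fold in all 4 lineages. The share of all genes lower in all 4 was not counted. These genes are long, from 16642 bases for *Dnmt3a* to 20291 for *Kmt2c*, and the part of length was not tested. In the order nephron progenitors, stroma, ureteric epithelium and endothelium, *Kmt2a* had relative values of -0.91, -0.61, -0.73 and -0.59. *Kmt2c* stood at -0.84, -0.70, -0.67 and -0.82, and *Kmt2d* at -0.87, -0.67, -0.70 and -0.66. *Dnmt3a* had values of -0.76, -0.54, -0.56 and -0.53. In Y-linked cells without *Xist* the endothelial value of *Dnmt3a* was -0.45 (-1.09 to 0.14), short of 1.4-fold, and the other 3 genes stayed past it in each lineage. The endothelial values of *Kmt2d*, at -0.81 (-1.93 to 0.16), and *Kmt2c*, at -0.87 (-1.63 to -0.19), rested on 10 and 20 Enl-T1 UMIs. Over all cells, lower levels of these 4 genes were thus a trait of all 4 lineages of the Enl-T1 library, and the cause was not tested. *Dpy30* lay above the median gene in each, at 0.72, 0.44, 0.66 and 0.34, and reached 1.4-fold in nephron progenitors and ureteric epithelium. *Pcgf1*, the 1 higher gene of stroma, stood there at 1.75 (0.94 to 2.67), from 14 and 104 UMIs. The 3 higher genes of endothelium, *Ezh1* (0.71), *Tet1* (0.69) and *Phf1* (0.86), rested on 13 to 56 UMIs a library.

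*Dnmt1* and *Uhrf1* were set side by side across the lineages, and differences between lineages were not tested. *Dnmt1* was at -0.44, -0.51, -0.53 and -0.72 in the same order, and *Uhrf1* at -0.01, -0.74, -0.67 and -1.06, so that nephron progenitors had the value nearest to the median gene. In Y-linked cells without *Xist* the order was another for *Dnmt1*, at -0.94, -0.55, -0.50 and -1.59, and *Uhrf1* stood at -0.14, -0.30, -0.68 and -1.36, no longer past 1.4-fold in stroma. The endothelial values of those cells rested on 23 and 19 Enl-T1 UMIs. *Ezh2* was at 0.00, -0.28, -0.32 and -0.22. The share of cells with S-phase or mitosis genes differed in the same lineages: cells with neither made up 50.9% of stroma in Enl-WT and 71.8% in Enl-T1, 55.7% and 72.7% of ureteric epithelium, and 41.7% and 69.1% of endothelial cells, but 42.7% and 42% of nephron progenitors. Whether these shares account for the values of *Dnmt1* and *Uhrf1* was not tested.

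*Rbbp7*, a histone-binding subunit of PRC2, is the 1 gene of the list on the X chromosome (162760402 to 162779092). It had 369 CPM in Enl-WT ureteric epithelium, 532 in Enl-T1 and 250 with TDI-11055, so that Enl-T1 was the high library and its relative value was 0.83 (0.78 to 0.89). In ureteric cells with *Xist* but without Y-linked UMIs the levels were 350 (329 to 371), 577 (563 to 591) and 259 (249 to 270) CPM. In ureteric cells with Y-linked UMIs but without *Xist* they were 394 (378 to 411), 387 (364 to 410) and 235 (224 to 245) CPM, and the relative value of Enl-T1 over Enl-WT was 0.24 (0.13 to 0.34). Restricting the comparison to cells of the second kind thus took *Rbbp7* out of the higher genes. In nephron progenitors it stood at -0.07 over all cells and at -0.27 in Y-linked cells.

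The genes were next followed through the cell cycle. Each cell was thinned to 2000 UMIs and placed in mitosis when at least 2 of 5 mitosis genes had a UMI, in S phase when at least 3 of 13 replication genes did, and otherwise in neither. None of the listed genes was used for this. In nephron progenitors S-phase cells made up 16.6% of Enl-WT (120 cells), 18.6% of Enl-T1 (111) and 22.0% of Enl-T1 TDI-11055 (128), and between 52 and 90 cells a library lay near a cut. Free RNA can add such UMIs, and its part in the shares was not tested.

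Of 44 genes, 3 were higher by 1.4-fold in S-phase progenitors than in those in neither phase in all 3 libraries, where 4.09% of all genes were, and 1 was lower, where 1.04% were. The higher genes were *Uhrf1*, *Dnmt1* and *Ezh2*. *Uhrf1* had 221 CPM in S phase and 58.8 in neither in Enl-WT (3.76-fold, 2.85 to 4.98), 252 and 57.3 in Enl-T1 (4.39-fold) and 203 and 56.9 with TDI-11055 (3.56-fold). *Dnmt1* had 253 and 104 CPM (2.42-fold, 1.93 to 3.04), 178 and 67.6 (2.64-fold), and 126 and 55.3 (2.28-fold). For *Ezh2* the folds were 1.56, 1.89 and 1.81. The lower gene was *Kdm5b*, with 269 CPM in S phase and 396 in neither in Enl-WT (0.679-fold, 0.571 to 0.805), 74.9 and 178 in Enl-T1 (0.421-fold), and 110 and 186 in Enl-T1 TDI-11055 (0.589-fold). In each library the interval of each of these ratios lay wholly on 1 side of 1.

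In mitotic progenitors 5 genes were higher than in neither phase (*Ezh2*, *Suz12*, *Dnmt1*, *Dnmt3b* and *Uhrf1*), against 5.82% of all genes, and *Kdm5b* was lower, against 2.17%. The same measure in stroma gave 4 higher S-phase genes (4.34% of all genes), namely *Ezh2*, *Eed*, *Dnmt1* and *Uhrf1*, and 2 lower ones (2.0%), *Kdm5b* and *Tet2*. Ureteric epithelium gave 7 higher (8.51%) and 4 lower genes (7.01%), and endothelial cells 5 higher (4.84%) and 2 lower (3.6%). *Ezh2*, *Dnmt1* and *Uhrf1* were among the higher genes of every lineage, and *Kdm5b* among the lower.

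**Figure D4:**
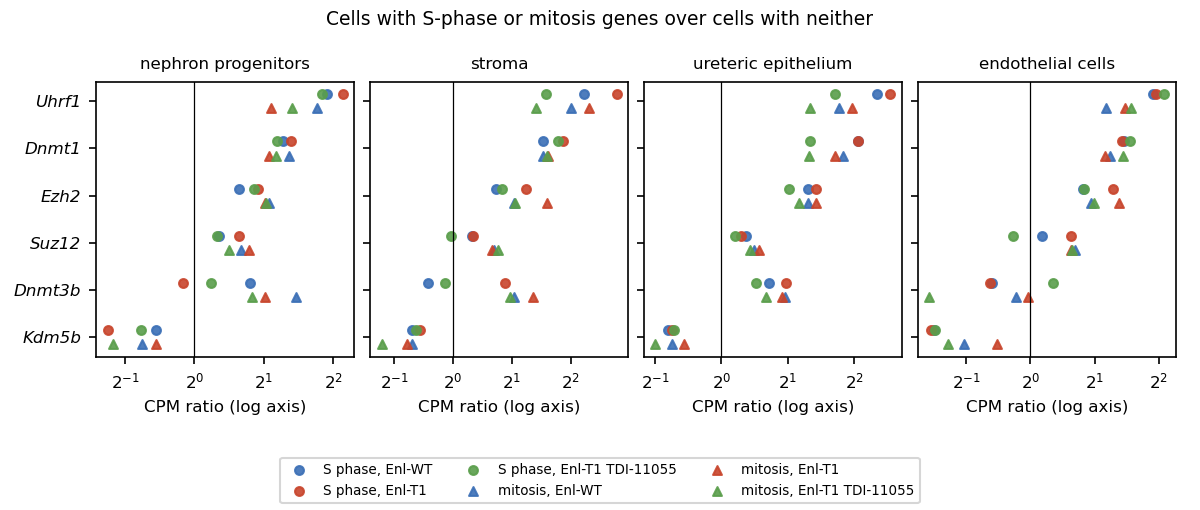
CPM in cells with S-phase genes (circles) or mitosis genes (triangles) over CPM in cells with neither, on a log axis, for 6 genes in 4 lineages, with 1 colour per library. *Uhrf1*, *Dnmt1* and *Ezh2* lie to the right of the line at 1 and *Kdm5b* to the left in every lineage and library, while *Dnmt3b* varies between lineages.

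Enl-T1 and Enl-WT progenitors were then compared within each phase. *Kmt2a* had relative values of -1.14 in S phase, -0.77 in mitosis and -1.0 in neither, and *Tet3* -1.20, -0.72 and -1.32, so that both were lower in each. *Kdm5b* had -1.51, -0.64 and -0.78, and *Dpy30* stood at 0.72, 0.52 and 1.05. *Dnmt1* stood at -0.17 in S phase, where Enl-WT had 253 CPM and Enl-T1 178, -0.58 in mitosis (267 and 143 CPM) and -0.25 in neither (104 and 67.6 CPM). *Uhrf1* stood at 0.52, -0.38 and 0.33, and *Ezh2* at 0.27, -0.06 and 0.04. *Ash2l* stood at -0.11, -0.57 and -0.49.

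Along the nephron, each class was set against nephron progenitors of its own library. Classes were named from markers with the suffix -like, and in Enl-T1 they were small, with 54 NP2-like cells (committed progenitors and renal vesicle), 33 podocyte-like, 32 proximal tubule-like and 99 distal tubule/loop of Henle-like cells. The Enl-WT library had 216, 219, 274 and 547 such cells. The Enl-T1 TDI-11055 library had 190, 27, 79 and 218, and its NP2-like cells were shallow, with a median of 5362.5 UMIs against 19080 in its progenitors.

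Between progenitors and NP2-like cells, *Phf19* was lower and *Kdm2b* higher in every library. In NP2-like cells 3 of 45 genes were lower in all 3 libraries (4.65% of all genes), namely *Phf19*, *Ezh1* and *Tet2*, and 3 were higher (5.04%), namely *Kdm2b*, *Jarid2* and *Cbx8*. *Phf19* had 31.5, 14.6 and 22.1 CPM in progenitors but 1.24, 1.33 and 3.39 CPM in NP2-like cells, from 2, 1 and 6 UMIs, and 0 to 4.14 CPM in the later classes, from at most 3 UMIs in any cluster. After thinning to 2000 UMIs, 5.39%, 3.52% and 3.78% of progenitors had a *Phf19* UMI, against 0%, 1.85% and 1.05% of NP2-like cells, and the 0 of 215 Enl-WT cells allows a share of up to 1.70% (exact binomial interval). *Kdm2b* had 82.8, 46.2 and 38.5 CPM in progenitors and 259, 106 and 94.4 CPM in NP2-like cells, relative values of 1.63, 1.15 and 1.39. It was high again in distal tubule/loop of Henle-like cells, with 207, 168 and 114 CPM, and within them a cluster led by *Sim1* and *Sim2* had 326, 235 and 148 CPM.

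The podocyte-like, proximal tubule-like and distal tubule/loop of Henle-like names rest mainly on Enl-WT cells. The 8 podocyte markers summed to 10710 CPM in the podocyte-like class of Enl-WT, 228 in that of Enl-T1, where 2 of the 8 were at 0, and 3355 with TDI-11055, and the NP2 markers in the same cells to 343, 1873 and 1473 CPM. The 10 proximal tubule markers summed to 5578, 495 and 789 CPM in the proximal tubule-like class, and the NP2 markers to 717, 2260 and 1732 CPM. The Enl-T1 cells of both clusters, and the treated cells of the second, thus had a higher summed level of NP2 markers than of class markers. In the distal tubule/loop of Henle-like class the 12 distal markers summed to 2566, 1104 and 1298 CPM. The NP2 markers in the same cells summed to 1703, 1802 and 1696 CPM, above the class markers in Enl-T1 and with TDI-11055. Counts for all of these classes are given first for Enl-WT.

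In Enl-WT podocyte-like cells 15 of 45 genes were lower than in progenitors, where 29.6% of all genes were, and 9 were higher, where 30.5% were. Across the cluster in all 3 libraries, 10 of 43 genes were lower (12.2% of all genes) and 2 were higher (11.7%). Without Enl-T1, 12 of 45 were lower (19.7% of all genes) and 7 were higher (20.4%). *Uhrf1* had relative values of -3.78, -3.08 and -3.37, *Dnmt1* of -2.90, -1.38 and -2.13, and *Ezh2* of -2.81, -1.61 and -1.46. The other lower genes were *Cbx2*, *Pcgf6*, *Ash2l*, *Wdr5*, *Kdm2b*, *Dnmt3b* and *Hdac2*. *Tet3* was higher, with 640, 174 and 270 CPM in the cluster against 179, 69.5 and 60.4 in progenitors, and so was *Jarid2*, with relative values of 1.05, 1.55 and 1.54.

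In Enl-WT proximal tubule-like cells 17 of 45 genes were lower, where 26.0% of all genes were, and 3 were higher, where 30% were. Across that cluster in all 3 libraries 7 of 44 genes were lower (7.9%), including *Ezh2*, *Dnmt1*, *Uhrf1* and *Rbbp4*, and 3 were higher (10.8%), namely *Cbx8*, *Pcgf5* and *Tet2*. In distal tubule/loop of Henle-like cells none of 44 was lower in all 3 libraries (5.64% of all genes), and 4 were higher (11.0%), namely *Jarid2*, *Pcgf5*, *Kdm2b* and *Dnmt3b*. *Ezh2*, *Dnmt1* and *Uhrf1* were thus lower in both the podocyte-like and the proximal tubule-like cluster. By this measure they were not in NP2-like or distal cells, and the difference between classes was not tested. These 3 genes are also those higher in S-phase and mitotic progenitors. In Enl-WT, 16.6% of the progenitors used as reference were placed in S phase and 40.75% in mitosis. Classes were not matched for phase, and the part of phase in the lower values was not tested.

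**Figure D5:**
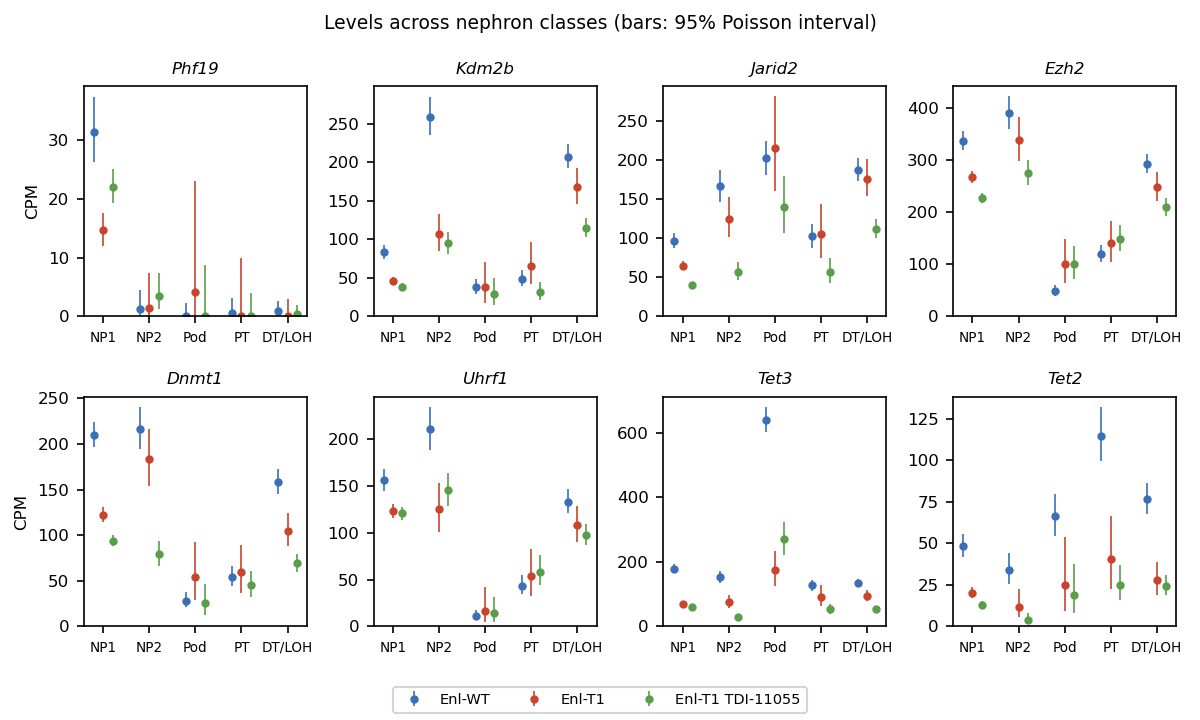
CPM of 8 genes in nephron progenitors (NP1), NP2-like, podocyte-like (Pod), proximal tubule-like (PT) and distal tubule/loop of Henle-like (DT/LOH) cells, with 1 point per library and 95% Poisson intervals; each panel has its own axis from 0. *Phf19* is near 0 outside progenitors, *Kdm2b* is highest in NP2-like and DT/LOH cells in Enl-WT, and *Tet3* is highest in the podocyte-like cluster in each library.

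The share of nephron progenitors with a UMI of a gene depended on depth. As deposited, the Enl-T1 share exceeded that of Enl-WT for 41 of the 47 genes, and after thinning every cell to 2000 UMIs it did so for 6, where 29.5% of all genes did. For *Ezh2* it was 43.8% (40.1 to 47.5) in Enl-WT, 37.2% (33.3 to 41.2) in Enl-T1 and 34.9% (31.0 to 38.9) with TDI-11055. For *Dnmt1* it was 30.5% (27.2 to 34.0), 18.1% (15.1 to 21.4) and 12.9% (10.3 to 15.9), and for *Ash2l* 19.9% (17.0 to 23.0), 10.9% (8.5 to 13.7) and 17.5% (14.52 to 20.86). These intervals are exact binomial intervals. They cover counting error within each library and do not compare the groups. In the treated library the share for *Ash2l* was above that of Enl-T1 and that for *Dnmt1* was below it.

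A further 48 genes of the same pathways, among them further Polycomb cofactors, COMPASS subunits, methyl-CpG binding proteins and deacetylase complex subunits, were counted as a list. In nephron progenitors 45 reached the minimum, with a median of -0.22 for Enl-T1 over Enl-WT, 15 lower and 1 higher, against 18.2% of all genes in either direction. Furthest were *Asxl3* (-0.95), a Polycomb-related deubiquitinase cofactor, and *Kdm5a* (-0.82), a lysine 4 demethylase. On the other side were *Hells* (0.64), a chromatin remodeller needed for DNA methylation, and *Mbd4* (0.32), a glycosylase that repairs deaminated methylcytosine. After treatment 3 were lower (12.0% of all genes) and 2 higher (10.1%), with a median of -0.20, and *Rybp* (-0.64), *Chd4* (-0.54), *Epop* (0.71) and *Hdac3* (0.57) were the furthest in either direction.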

How the data were processed

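Single-cell 3′ libraries of whole kidneys were compared, 1 library per group. Per the submitters' notes the authors made the deposited UMI counts with Cell Ranger 6.1.2 on build mm10, and the matrices held raw counts of the barcodes called as cells, with no correction for free RNA and no removal of doublets. Kept cells were integrated and clustered in Seurat 5.3.0 (R 4.3.3, 2000 variable genes, 30 components at resolution 0.5 for all cells and 20 at 0.8 for the nephron), leaving out the 47 genes, further genes of the pathways and the Hox, haemoglobin, mitochondrial, sex-linked and ribosomal protein genes. No annotation of cells was among the files, so class names were rebuilt from marker lists, which alone may give a difference from the study. A nephron cluster of 115, 186 and 149 cells was left unnamed because its best markers were on average lower in it than elsewhere, a rule added after the clusters were seen. A further 3 were left unnamed because the marker list that scored best in them was not one of a nephron class. The 47 genes, the lists and the rules were chosen with earlier results of these data known.

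UMIs were summed per class and library and given as CPM with exact 95% Poisson intervals (Python 3.11.15, scipy 1.17.1). Genes with a mean of at least 5 CPM over the libraries were used, and 1.4-fold relative to the median gene was the limit for a count. PCR duplicates were removed by the UMIs. Genes of similar level and length were those in the same of 10 level bins and 10 exonic length bins (GENCODE annotation on GRCm38). Values in every library were given for *Dnmt1*, *Ezh2* and *Ash2l*, for genes past 1.4-fold in nephron progenitors in either comparison, and for genes at least 2-fold above every other lineage, and others were named after their values were seen. No gene overlapped another on its own strand and 16 overlapped one on the other strand. Before thinning, cells under 2000 UMIs were left out. Total UMIs were 37221435, 63336586 and 76619303, and the medians per cell limit low genes such as *Cbx7*. Scripts were tested on simulated data. Alternatives varied the scaling, the level minimum, the filter on cells, doublets, the weighting of cells, the sex of the cells and the phase. Scrublet (scanpy 1.11.5) marked 139, 86 and 0 barcodes, and where it marked none the 333 highest scores were left out.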

Additional observations from a re-analysis of the deposited data

Results flagged for a closer look

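After treatment of Enl-T1, 3 genes moved in opposite directions in different lineages, in each case past 1.4-fold on both sides. None of these differences was tested, since each lineage has 1 library per group. The share of all genes that moved in this way was not counted, so the 3 genes cannot be set against it. *Cbx2*, a PRC1 chromobox protein, stood at 0.71 in stroma (36 UMIs in treated and 69 in untreated Enl-T1) and at -0.63 in endothelial cells (9 and 26 UMIs), a difference of 1.34 on the log2 scale. In ureteric epithelium it stood at 0.67 (347 and 176 UMIs), a difference from endothelial cells of 1.30. *Dnmt3b* stood at 0.88 in ureteric epithelium (406 and 178 UMIs), at -0.59 in stroma (15 and 71 UMIs) and at -0.61 in endothelial cells (27 and 77 UMIs), differences of 1.473 and 1.495. *Kdm2b* stood at 0.71 in ureteric epithelium (1590 and 786 UMIs) and at -0.58 in stroma (99 and 464 UMIs), a difference of 1.29. S-phase cells made up 9.92% of Enl-T1 and 20.8% of Enl-T1 TDI-11055 ureteric epithelium, and 12.2% and 23.3% of stroma, and the part of this in the differences was not tested.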

How the results depend on the processing

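No paired analysis was possible because each group had 1 library. For the same reason no library could be left out. Of 108 alternative values 79 stayed within 1.5 times the reported count and 29 moved past it, and most of those were small counts. A count given below without a share of all genes was not set against one, and that share can change with the setting too. Without the shift of the median gene, the lower genes in Enl-T1 numbered 28 in nephron progenitors (38.6% of all genes) and 27 in stroma (36.4%). In ureteric epithelium they numbered 27 (34.6%) and in endothelium 22 (36.4%). The higher genes numbered 1 each in nephron progenitors (8.14%), ureteric epithelium and endothelium. With totals that left out mitochondrial, ribosomal protein and haemoglobin genes, 19 genes were lower in stroma and 21 in ureteric epithelium. A minimum of 20 CPM left 1 higher gene in nephron progenitors and 0 in stroma and endothelial cells.

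Cells with 1500 to 4500 genes and at most 5% mitochondrial counts gave 4 higher genes in nephron progenitors, 2 in stroma and 7 in endothelial cells. For treated against untreated Enl-T1 they gave 16 lower genes (25.2% of all genes, against 12.0% over all kept cells). They also gave 4 higher genes (18.6%, against 10.1%). With these cells 10 of the 47 genes in place of 20 had the same highest lineage in all 3 libraries, and 8 in place of 4 were lower than genes of similar level and length. Y-linked cells without *Xist* gave 4 higher genes in nephron progenitors (22.0% of all genes, against 18.2% over all kept cells), 2 in stroma and 6 in endothelial cells. They also gave 18 lower genes in endothelial cells and 10 lower than similar genes. With every cell weighted equally, 2 genes were higher in stroma and 11 were lower after treatment. In cells of neither phase, an alternative chosen after seeing the data, 2 were higher in stroma. With no minimum on level 4 were higher after treatment. Without thinning, the share of cells was higher in Enl-T1 for 41 genes in place of 6. The cause of these shifts was not tested.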

Other observations

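Nephron clusters left without a name held 115, 186 and 149, 47, 216 and 18, 30, 72 and 61, and 37, 8 and 16 cells in the Enl-WT, Enl-T1 and treated libraries, and entered the nephron lineage but no class. In the first of them *Phf19* had 18.6 CPM (8.93 to 34.2) in Enl-WT, 7.19 (3.83 to 12.3) in Enl-T1 and 11.9 (7.64 to 17.7) with TDI-11055, values between those of nephron progenitors and NP2-like cells.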
